A study of Mus musculus with 2 samples.

Results

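Esrp1, Esrp2, Mbnl1, Mbnl2, Rbfox2, Rbpms, Rbpms2, Ptbp1, Qk and Celf2 encode RNA-binding proteins that set tissue-specific splicing in epithelium or muscle. These 10 genes were chosen by name, as regulators known from epithelial or muscle cells, from the 43346 Ensembl genes quantified in the series. All 10 were found in the gene table of each library, and their transcripts were added from the transcript tables. The series holds 1 group, whole urinary bladder of C57BL/6J mice aged 8 weeks, as 2 stranded paired-end libraries of polyadenylated RNA numbered replicates 1 and 2. The animals are described as littermates of mixed sex, and no treatment or engineered allele is named. Both libraries name the same donor entry but separate biosamples, so the SD given here (n = 2 throughout) reflects the difference of these samples alone, and that difference may be technical. The series makes no contrast between conditions, and no p-value is given.

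As background, a splicing regulator binds short RNA motifs beside or inside an alternative exon and raises or lowers its use, often depending on whether it binds upstream or downstream of the exon. The ESRP proteins drive the epithelial splicing pattern, including the epithelial form of the receptor Fgfr2. RBPMS and RBPMS2 promote the smooth muscle pattern, and PTBP1 represses many exons that differentiated muscle or nerve cells include. MBNL, RBFOX, QKI and CELF proteins act on many muscle exons, with MBNL and CELF proteins often working in opposite directions. Many of these genes are themselves alternatively spliced, some through binding of the protein to its own transcript.

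Gene-level expected counts summed to 99367453 in replicate 1 and 105057347 in replicate 2. The marker genes of the labelled tissue were present: all 10 urothelial markers and all 7 smooth muscle markers reached 1 TPM (an abundance adjusted for transcript length and library total) in both libraries. The urothelial markers held 0.583% of gene TPM in replicate 1 and 0.786% in replicate 2, the smooth muscle markers 2.97% and 2.75%, and the neuron and glia markers 0.0376% and 0.0618%. Uchl1 alone, at 325 and 539 TPM, made up most of the neuron and glia sum of 353 and 569 TPM, so that share mainly follows 1 gene. Between the libraries the ratio of replicate 2 to replicate 1 fell with transcript length, with a Spearman correlation of -0.35 across 14533 genes, which are not independent replicates. Whole tissue was profiled, so fewer cells of a type and less RNA per cell cannot be told apart.

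All 10 regulators reached 1 TPM in both libraries, beside 32.7% of all Ensembl genes. Together they held 0.0848% ± 0.0058 of gene TPM. Their mean levels ranged from 25.5 TPM for Esrp1 to 248 TPM for Rbpms, all above the median of 15.0 TPM among detected genes.

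Rbpms stood at the top of this range. Rbpms (chr8:33782643-33929863 on mm10, minus strand), a regulator of smooth muscle splicing, stood at 267 and 228 TPM in replicates 1 and 2, above 97.0% of detected genes on the mean of both libraries. Its paralog Rbpms2 (chr9:65629648-65660528, plus strand) was at 117 and 101 TPM. Rbpms lay above every other regulator of the set in both libraries, with no overlap.

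Ptbp1 (chr10:79854427-79864771, plus strand), the polypyrimidine tract-binding protein and a broad repressor of exons, reached 116 and 105 TPM in the libraries in the same order. Its range overlapped that of Rbpms2, so the order of these genes was not set by the libraries. The muscleblind genes followed: Mbnl1 (chr3:60472830-60629750, plus strand) was at 80.7 and 64.9 TPM. Mbnl2 (chr14:120275669-120431697, plus strand) was at 69.0 and 67.9 TPM. Mbnl1 was the higher in replicate 1 and Mbnl2 the higher in replicate 2.

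The epithelial regulators were lower than the muscle regulators Rbpms and Rbpms2. Esrp2 (chr8:106130319-106136974, minus strand) was at 49.0 and 43.2 TPM, a range that holds both values of Rbfox2 (chr15:77078990-77307004, minus strand; 45.4 and 44.8 TPM). Esrp1 (chr4:11331933-11386783, minus strand) was the lowest regulator in both libraries, at 23.4 and 27.6 TPM. Esrp2 therefore exceeded Esrp1 in both libraries, whose values did not overlap.

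The STAR-family regulator Qk (chr17:10202601-10319854, minus strand), which encodes quaking and acts in muscle and glia, was at 33.4 and 31.3 TPM. Celf2 (chr2:6539694-7509563, minus strand), which binds GU-rich RNA, was at 34.1 and 29.9 TPM. The ranges of Qk and Celf2 overlapped, and both genes lay between Rbfox2 and Esrp1.

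**Figure D1:**
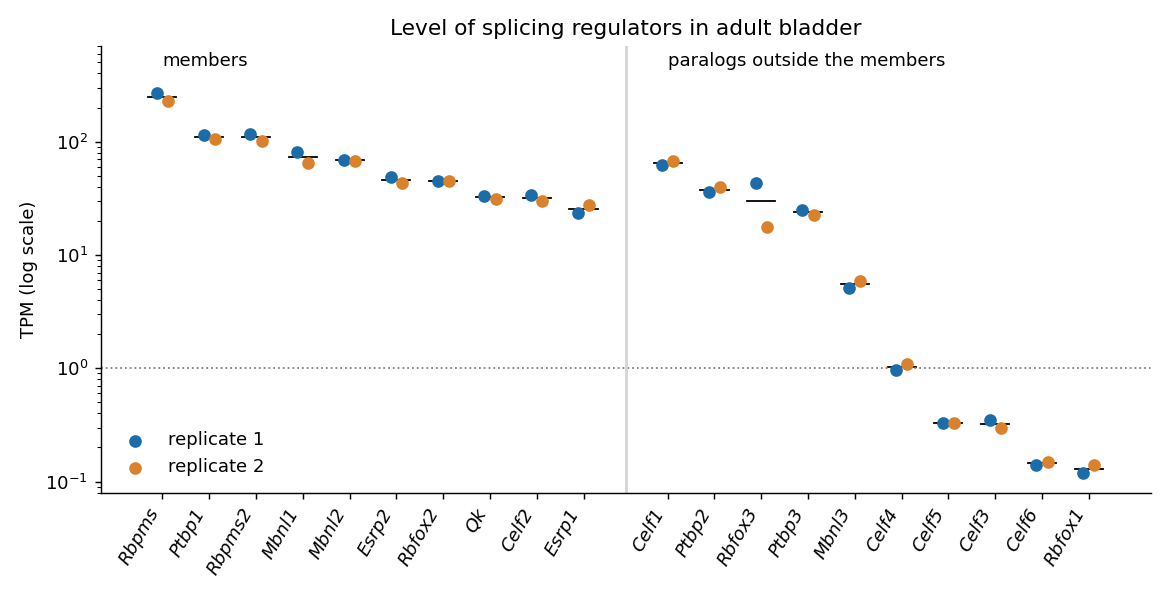
Level in TPM (log axis) of the 10 regulators (left) and 10 paralogs (right). Each point is 1 library and each short line is the mean of both; the dotted line marks 1 TPM, and all 10 regulators lie above 20 TPM while the paralogs reach down to 0.13 TPM.

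Within families, the difference between relatives was often larger than the spread of the libraries. On the log2(TPM + 0.5) scale Rbpms exceeded Rbpms2 by 1.18 ± 0.02, with 1.19 in replicate 1 and 1.17 in replicate 2. Esrp1 to Esrp2 was -0.84 ± 0.29, with -1.05 and -0.64. Mbnl1 to Mbnl2 was 0.08 ± 0.21 and had a different sign in each library, so the muscleblind genes were not separated.

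Paralogs outside the set were detected less uniformly, with 5 of 10 at 1 TPM or more in both libraries. Ptbp1 exceeded Ptbp2, the paralog best known from neurons, by 1.53 ± 0.19 on the log2(TPM + 0.5) scale, yet Ptbp2 was at 36.2 and 39.5 TPM. Ptbp1 exceeded Ptbp3 (24.9 and 22.7 TPM) by 2.19 ± 0.01 on that scale. All 3 polypyrimidine tract-binding genes were thus present in the tissue.

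Celf1, a ubiquitous relative of Celf2, was at 62.8 and 68.0 TPM, above Celf2 in both, and the log2 ratio of Celf2 to Celf1 was -1.02 ± 0.21. The remaining CELF genes were near or under 1 TPM: Celf4 at 0.96 and 1.09 TPM, Celf3 at 0.35 and 0.30, Celf5 at 0.33 in both libraries, and Celf6 at 0.14 and 0.15. Mbnl3 was at 5.10 and 5.89 TPM, lower than Mbnl1 by 3.61 ± 0.36 on the log2 scale. The CELF and muscleblind families were therefore each carried mainly by a pair of genes.

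Among RBFOX genes, Rbfox2 was accompanied by Rbfox3 and not by Rbfox1. Rbfox1, the form best known from heart, skeletal muscle and brain, was at 0.12 and 0.14 TPM. Rbfox3, whose protein is the neuronal marker NeuN, was at 42.8 TPM in the first library and 17.6 TPM in the second. Relative to the median gene its log2 ratio of replicate 2 to replicate 1 was -1.34, past 1.5-fold. All 5 neuron and glia markers reached 1 TPM in both libraries, from Snap25 (1.63 and 1.22 TPM) and Tubb3 (2.54 and 2.80 TPM) to Uchl1 (325 and 539 TPM), and their part in the level of Rbfox3 was not tested.

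Between the libraries none of the 10 regulators passed 1.5-fold after the median gene was set to 0, beside 8.28% of the 14533 genes that averaged 1 TPM or more (2.21% of them past it upward and 6.08% downward in replicate 2). The log2 ratios of replicate 2 to replicate 1 ran from -0.40 for Mbnl1 to 0.15 for Esrp1, with a median of -0.24 over the 10 genes against 0 over all genes tested. Esrp1 was the only regulator above the median gene, and the other 9 lay below it. Esrp2, the other epithelial regulator, was at -0.26, so the ESRP genes lay on opposite sides of it.

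Transcript length moved with these ratios. Genes in the longest of 10 length classes had a median log2 ratio of -0.22 relative to all genes. When each regulator was set against genes of its own length decile, 7 lay below and 3 above, Mbnl1 came to -0.26 and Esrp1 to 0.21. Rbpms, with an expressed length of 1836 bases, came to -0.42, the lowest value. The parts of length and of the urothelial share in these ratios were not tested.

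**Figure D2:**
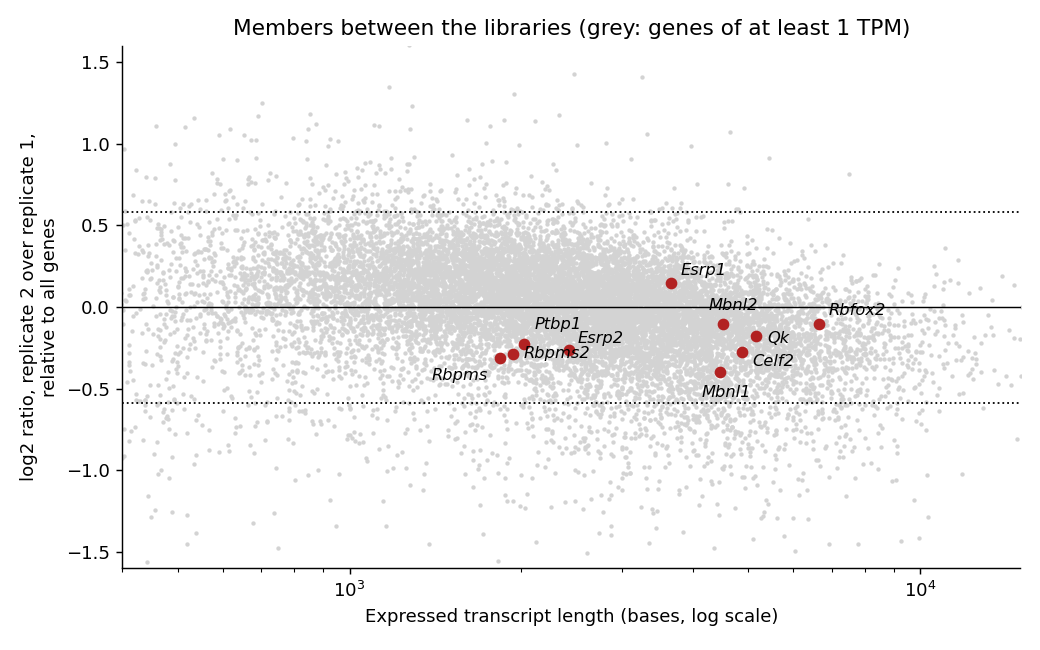
Log2 ratio of replicate 2 to replicate 1 (relative to the median gene) against expressed transcript length in bases (log axis); grey points are genes averaging 1 TPM or more, red points the 10 regulators, dotted lines 1.5-fold. All 10 regulators lie inside the dotted lines and only Esrp1 lies above 0; genes outside the drawn range are not shown.

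Transcript shares are the percent of a gene's TPM assigned to each annotated transcript, and the number of transcripts quantified differed between genes. A single transcript held over 50% in both libraries in 73.2% of 10050 genes with several transcripts. That held for 6 of the 10 regulators: Rbpms2, Mbnl2, Qk, Esrp2, Esrp1 and Rbfox2. Of these, Rbpms2, Mbnl2 and Qk had only 2 quantified transcripts each, so 1 of them had to hold at least 50% in each library. Rbfox2 had 4, Esrp1 7 and Esrp2 9, while Rbpms, Ptbp1, Mbnl1 and Celf2 had 13, 16, 25 and 28. The split between these genes therefore followed the number of transcripts quantified. Rbpms2-201 held 90.6% in replicate 1 and 91.7% in replicate 2. Qk-202 held 77.0% and 73.9%, and the rest of Qk was Qk-201.

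The ESRP genes each had a main protein-coding form. Esrp2-201, encoding 717 residues, held 59.3% and 63.4%, and retained-intron transcripts of Esrp2 held 31.0% and 31.4%. By expected counts, which carry no length adjustment, Esrp2-201 held 91.9% and 92.4% and the retained-intron transcripts 6.92% and 6.51%, so these short transcripts weigh more in TPM. Esrp1-204, encoding 604 residues, held 58.8% and 59.2%. The longer forms Esrp1-203 (681 residues) and Esrp1-201 (659 residues) held 23.6% ± 1.5 and 12.3% ± 1.8.

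Rbpms, Mbnl1, Celf2 and Ptbp1 were spread over more forms. Rbpms-203, encoding 197 residues, held 34.8% and 40.4% of Rbpms, followed by Rbpms-202 (220 residues) at 17.9% ± 5.1, Rbpms-213 at 14.5% ± 0.6 and the retained-intron transcript Rbpms-211 at 10.6% ± 0.8. By expected counts Rbpms-211 held 2.02% and 2.14% and Rbpms-202 11.1% and 7.21%. Celf2-202 held 27.0% ± 5.7 of Celf2 (42.0% by expected counts), followed by Celf2-206 at 22.8% and 19.2%, Celf2-226 at 15.1% ± 1.3 and Celf2-205 at 11.2% ± 3.4. These 4 coding forms of Celf2 encode 484, 526, 472 and 488 residues in that order.

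Ptbp1 led with a transcript of 744 bases annotated as a retained intron, Ptbp1-214, at 23.0% and 21.8%. Retained-intron transcripts together held 49.6% of Ptbp1 in replicate 1 and 47.6% in replicate 2. The coding forms Ptbp1-216 (555 residues) and Ptbp1-206 (529 residues) held 20.5% ± 2.1 and 16.0% ± 1.5. By expected counts Ptbp1-214 held 6.65% and all retained-intron transcripts of Ptbp1 29.4% and 28.9%, so their share and the rank of Ptbp1-214 depended on the length adjustment.

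Rbfox2-203 held 53.3% and 58.9% of Rbfox2, with Rbfox2-202 at 24.0% ± 2.8 and Rbfox2-201 at 19.5% ± 1.3. Mbnl2-202 held 83.3% and 80.2% of Mbnl2 and Mbnl2-201 the rest. Mbnl1-201 held 32.5% and 29.2% of Mbnl1, Mbnl1-214 22.7% and 29.1%, and Mbnl1-218 13.0% and 10.7%. The leading forms of Mbnl1 were thus separated in replicate 1 but nearly equal in replicate 2.

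**Figure D3:**
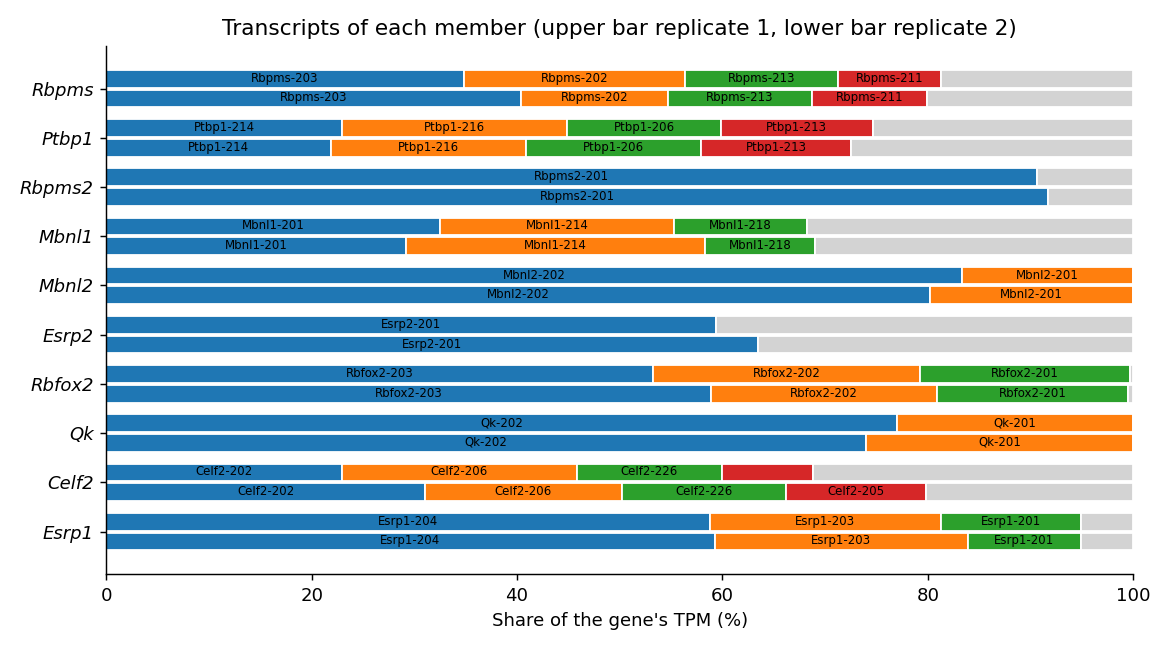
Share of each regulator's TPM (percent) by transcript in replicate 1 (upper bar) and replicate 2 (lower bar). Coloured segments are transcripts averaging 10% or more and grey is the rest; Rbpms2 is almost a single segment, and Ptbp1, Mbnl1 and Celf2 are split.

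The splice junction reads, mapped on mm9 and summed over both libraries by the authors, gave exon use without assigning reads to transcript models. Each junction also carries 2 read counts tagged R1 and R2, which add up to the sum but are not tied to a library by any label, and they are quoted below in that order. Percent inclusion is the mean of both flanking junction counts over that mean plus the reads that skip the exon, and its 95% Wilson interval covers counting error only, since reads without molecular identifiers are not independent molecules. Of 19 exons of the regulators that Ensembl release 65 annotates as skippable and that had at least 20 reads, 13 had 10 to 90% inclusion, beside 27.5% of 8907 such exons in all genes. With unannotated skips allowed, 16 of 46 exons of the regulators (34.8%) lay in that range, beside 13.9% of all exons. The 13 exons lay in 7 genes. Esrp2, Rbpms2 and Qk had no exon among the 19, so their absence from the 13 was set by the annotation and the read minimum. Only 4 of the 13 had a length divisible by 3, beside 56.6% of all exons in that range, so most shift the reading frame when they are coding and are skipped alone.

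**Figure D4:**
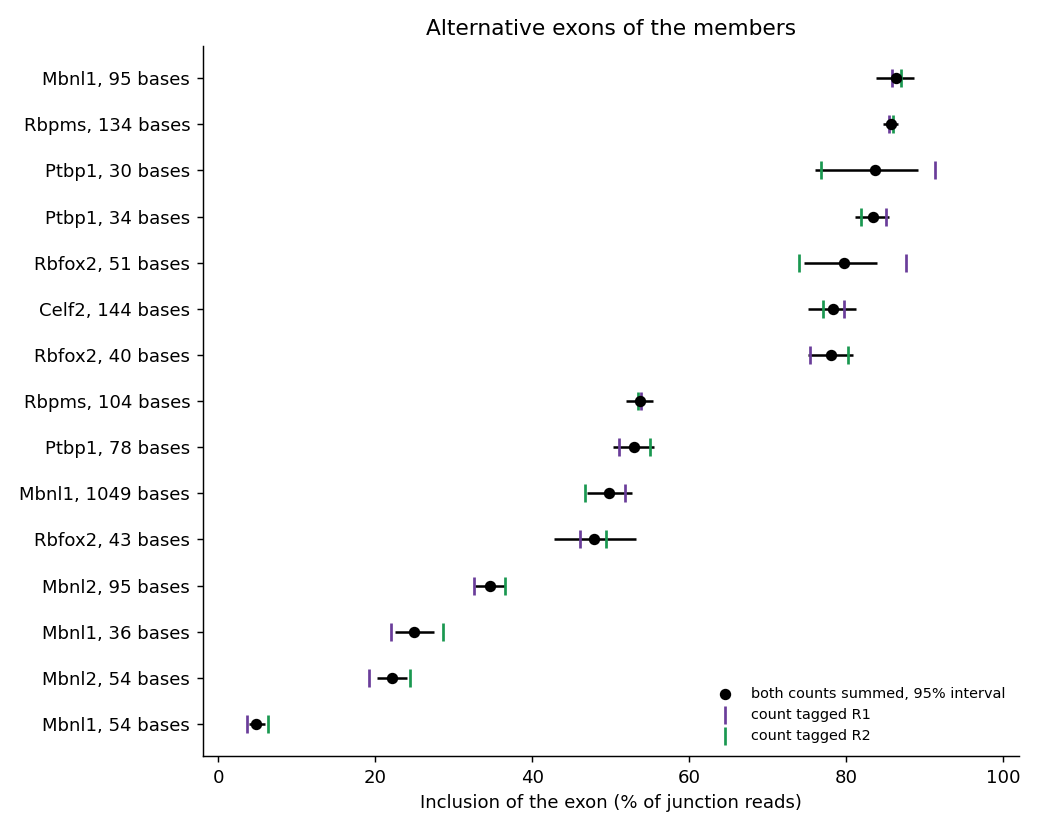
Inclusion (percent of junction reads) of alternative exons of the regulators. Points with bars are the summed counts with the 95% interval and coloured ticks the counts tagged R1 and R2; the plotted exons run from the 54-base exon of Mbnl1 at 4.82% to the 95-base exon of Mbnl1 at 86.4%, and 4 of them (Mbnl1 36 and 54, Rbfox2 51 and Rbpms 134 bases) lie outside the 13 annotated exons, of which those of Esrp1 are not drawn.

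Mbnl1 and Mbnl2 share exons of 54 and 95 bases, and these are shown because both genes used them at different rates. The 54-base exon is known to favour nuclear localisation and to be skipped under the control of MBNL proteins themselves. The sequences, from GENCODE M21 transcripts on mm10, are coding in most of the annotated transcripts that hold them. Capitals mark the bases that differ between both genes: 46 of 54 bases and 81 of 95 bases are the same.
Mbnl1 54-base exon, chr3:60614683-60614736, plus strand: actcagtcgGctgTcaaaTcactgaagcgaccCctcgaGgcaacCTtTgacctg
Mbnl2 54-base exon, chr14:120395712-120395765, plus strand: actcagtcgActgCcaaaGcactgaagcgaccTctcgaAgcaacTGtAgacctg
Mbnl1 95-base exon, chr3:60622146-60622240, plus strand: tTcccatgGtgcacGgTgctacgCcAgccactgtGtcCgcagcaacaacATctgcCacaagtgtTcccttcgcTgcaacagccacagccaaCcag
Mbnl2 95-base exon, chr14:120404638-120404732, plus strand: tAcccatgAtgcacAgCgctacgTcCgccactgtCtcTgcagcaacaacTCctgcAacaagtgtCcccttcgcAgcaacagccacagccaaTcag

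The 54-base exon was mostly skipped in both genes. In Mbnl2 it was joined by 323 reads upstream and 428 downstream and skipped by 1325, an inclusion of 22.1% (20.2 to 24.1%), with 19.2% and 24.4% in the counts tagged R1 and R2. In Mbnl1 it was joined by 82 and 89 reads and skipped by 1687, an inclusion of 4.82% (3.90 to 5.89%), with 3.64% and 6.33%. By junction reads the exon was thus included more in Mbnl2 than in Mbnl1, in each tagged count and with intervals of counting error that did not overlap. The transcript shares of the exon, given below, had the opposite order. In Mbnl1 this exon is in no Ensembl 65 transcript and was chosen after its values were seen.

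In Mbnl1 a 36-base exon precedes the 95-base exon, and most reads leaving the exon upstream of both used junctions outside Ensembl 65. The sequence of the 36-base exon, coding in M21, is shown because the routes through this region turn on it.
Mbnl1 36-base exon, chr3:60621423-60621458, plus strand: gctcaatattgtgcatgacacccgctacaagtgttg
Of 1686 reads leaving the exon upstream, 27.4% (25.3 to 29.6%) entered the 36-base exon, 21.7% (19.8 to 23.7%) entered the 95-base exon directly, and 50.9% (48.5 to 53.3%) skipped both. Of 2065 reads entering the exon downstream, 53.2% (51.1 to 55.4%) came from the 95-base exon. The inclusion of 86.4% for the 95-base exon counts only the annotated skip from the 36-base exon, and so covers a minority of these reads. Reads that skipped both exons numbered 858 and those that skipped only the 36-base exon 366, and neither junction is annotated in Ensembl 65. Unannotated junctions carried 15.2% of the junction reads within Mbnl1, beside 3.73% of reads over all genes.

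In Mbnl2 the 95-base exon was included in 34.6% (32.6 to 36.6%) of 2259 reads, with 32.6% and 36.5% in the tagged counts. That lies below the 53.2% of downstream reads that came from the Mbnl1 95-base exon, although the latter is measured at 1 junction only. At the matching downstream junction alone, the Mbnl2 exon had 39.3%. The 1049-base exon near the 5′ end of Mbnl1, mostly noncoding, was included in 49.8% (46.9 to 52.7%). Its upstream junction alone gave 41.0% and its downstream junction alone 56.3%. Transcripts with this exon held a higher 76.2% and 70.7% of the TPM of those that span it, in replicates 1 and 2.

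The transcript tables gave other values for the muscleblind exons. Among quantified transcripts that span it, those with the 54-base exon of Mbnl1 held 44.3% of their TPM in replicate 1 and 48.8% in replicate 2, against 4.82% of junction reads. Those with the 36-base exon held 54.7% and 50.5%, and those with the 95-base exon 80.4% and 84.1%. Of the quantified transcripts that span all 3 exons and have a model of the same length in Ensembl 65 or M21, none lacked all 3. Mbnl1-218, the only such transcript without both the 36- and the 95-base exon, holds the 54-base exon, and so does Mbnl1-214, which holds 22.7% and 29.1% of Mbnl1 and lacks the 36-base exon. In Mbnl2 both quantified transcripts hold the 95-base exon, so its share was 100% in the tables against 34.6% of junction reads. The 54-base exon of Mbnl2, present in 1 of the 2 transcripts, had transcript shares of 16.7% and 19.8%, near the junction value of 22.1%.

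Rbfox2 has a 40-base and a 43-base exon between the same neighbours, and the 43-base exon is the one known from muscle. Both are coding in M21 and are shown because their use separates the tissue forms.
Rbfox2 40-base exon, chr15:77094451-77094490, minus strand: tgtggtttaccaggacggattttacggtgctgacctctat
Rbfox2 43-base exon, chr15:77091812-77091854, minus strand: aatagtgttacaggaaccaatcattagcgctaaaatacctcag
The 40-base exon took 79.5% (76.7 to 82.2%) and the 43-base exon 20.5% of 799 reads divided between them, with 78.2% and 80.6% for the 40-base exon in the tagged counts. A further 178 reads skipped both exons and 47 joined them to each other. Against skipping alone, the 40-base exon was included in 78.1% and the 43-base exon in 47.9% (42.7 to 53.2%). The 40-base exon was thus the main form in this tissue, with a minority of the muscle form. Transcripts with the 43-base exon held 26.0% and 22.0% of Rbfox2 in the transcript tables, and those with the 40-base exon 53.6% and 59.4%.

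The 93-base exon of Rbfox2, which encodes part of the RNA-binding domain and whose skipping gives a form that does not bind RNA, was included in 96.6% (95.3 to 97.6%). The skipping form accounted for 33 reads. Near the 5′ end, a 51-base exon with an unannotated skip had an inclusion of 79.8% (74.7 to 84.0%), with 87.7% and 73.9% in the tagged counts.

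Ptbp1 has 2 exons with well-known effects on its protein. The 78-base exon lengthens the linker between RNA-binding domains in the middle of the protein, and the skipping of the 34-base exon shifts the frame and sends the transcript to nonsense-mediated decay, a means by which PTBP1 limits its own level. Both are shown because their use sets the Ptbp1 forms.
Ptbp1 78-base exon, chr10:79860117-79860194, plus strand: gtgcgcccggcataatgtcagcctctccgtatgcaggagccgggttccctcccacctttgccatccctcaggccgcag
Ptbp1 34-base exon, chr10:79862014-79862047, plus strand: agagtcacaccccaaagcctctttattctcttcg
The 78-base exon was included in 52.9% (50.3 to 55.5%) of 1444.5 reads, counting flanking reads as their mean. The tagged counts gave 51.1% and 55.0%, and the share by transcript was 52.1% and 48.4%. The 34-base exon was included in 83.4% (81.1 to 85.5%), with 179 reads for the skipping form. The transcript tables gave 80.3% and 76.0%, so the skipped form was a minority in either source. A 30-base exon came to 83.7%, but 205 reads supported its upstream junction and 0 its downstream junction. At its downstream junction alone that exon had 0% inclusion, and its transcripts were at 0% of those that span it.

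Celf2 had 1 exon in the middle of the range. The 144-base exon is coding in 9 of the 11 M21 transcripts that hold it and is shown because it is the only annotated exon of Celf2 in that range.
Celf2 144-base exon, chr2:6549832-6549975, minus strand: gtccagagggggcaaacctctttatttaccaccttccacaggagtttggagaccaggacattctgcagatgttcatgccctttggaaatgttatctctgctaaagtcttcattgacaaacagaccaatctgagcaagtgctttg
It was included in 78.3% (75.1 to 81.3%), with 79.7% and 77.1% in the tagged counts and 75.9% and 75.5% in the transcript tables. These values agree within the interval in both libraries. The 36-base exon of Celf2 was joined in all 463.5 reads and the 41-base exon in 0 of 325.

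Rbpms had a 104-base exon near the 3′ end, coding in 1 of the 6 M21 transcripts that hold it, at 53.7% (51.9 to 55.4%) of 3122 reads. The tagged counts gave 53.8% and 53.5%, and the transcript tables a lower 42.3% and 38.6%. A coding 134-base exon of Rbpms, with an unannotated skip, was included in 85.7% (84.7 to 86.6%), but its flanking junctions had 6860 and 1661 reads. Of the junction reads within Rbpms, 9.16% lay on unannotated junctions, and 6 such junctions had at least 100 reads.

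Among other splicing factors, all 34 broadly expressed ones were detected in both libraries, led by Srsf5 at 625 ± 125 TPM, Hnrnpk at 385 ± 64 TPM and Srsf2 at 273 ± 70 TPM. They held 0.438% and 0.530% of gene TPM, against 0.0889% and 0.0807% for the 10 regulators. Of 15 tissue-restricted factors outside the paralogs, 7 were detected, led by Rbm38 (65.5 ± 15.2 TPM), Khdrbs3 (39.0 ± 2.0 TPM) and Msi2 (33.2 ± 0.4 TPM). Nova1, Nova2, Srrm3, Srrm4, Khdrbs2, Elavl2, Elavl3 and Elavl4, factors best known from neurons, were under 1 TPM in both libraries. The 10 regulators, at 25.5 to 248 TPM, thus lay within the range of the broad factors, whose lowest mean was 19.4 TPM.

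Exons of genes known as targets of these regulators were read from the same junctions, as 1 measurement of the whole tissue. In Fgfr2, the textbook ESRP target, the 148-base epithelial exon IIIb took 34.9% (31.0 to 38.9%) and the 145-base mesenchymal exon IIIc 65.1% of 556 reads. Exons of other ESRP target genes had intermediate values. These were 50.3% (46.2 to 54.5%) for the 129-base exon of Arhgef11, 44.6% for the 63-base exon of Scrib and 33.8% for the 93-base exon of Slk. The 57-base exon of Enah was included in 3.26% (2.31 to 4.75%) and the 87-base exon of Ctnnd1 in 11.2%. In the same list, the 78-base exon of Fgfr2 was included in 73.1%, the 42-base exon of Arfgap2 in 4.14% (1.22 to 9.98%) of 84.5 reads, and the 207-base exon of Cd44 in 35.5%, the last with 1 and 249 reads at its flanking junctions. The chosen exons ranged from nearly full skipping, in Enah and Arfgap2, to inclusion in most reads, at the 78-base exon of Fgfr2. That span was partly set by the choice. Whether each of these exons responds to ESRP proteins was not tested.

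Among muscle targets, Tpm1, Tpm2 and Actn1 used nearly always the same exon of a mutually exclusive pair. Tpm2 used the upstream of its 76-base exons in 99.8% (99.77 to 99.84%) of 63878.5 reads and Tpm1 the downstream of its 76-base exons in 98.3% (98.2 to 98.4%) of 104185 reads. Actn1 used its 66-base exon in 97.0% and its 81-base exon in 3.04% (2.76 to 3.36%). Myocd, a coactivator of smooth muscle genes, included its 44-base exon in 89.2% (85.6 to 92.0%), and this exon took 92.9% against a 214-base alternative. Mef2a divided its reads between exons of 132 bases (65.8%) and 138 bases (34.2%), and Mef2d took 88.1% for its 138-base exon. Pkm used the first of its 167-base exons, which gives the M1 form, in 59.6%, but the flanking junctions of the second had 5861 and 1049 reads.

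Cassette exons of other muscle genes, chosen by the rule given above, had mixed values, and that rule favoured intermediate ones. The 39-base exon of Myh11, the smooth muscle myosin heavy chain, was included in 31.6% (31.2 to 32.0%) of 55331.5 reads. The 31-base exon of Ppp1r12a, a myosin phosphatase subunit, was included in 75.9% (74.8 to 76.9%). The 165-base exon of Smtn was at 18.9%, the 270-base exon of Fn1 at 27.3% and the 66-base exon of Mprip at 59.9%. Higher values were found for the 79-base exon of Tpm1 (83.0%) and the 192-base exon of Map4k4 (74.3%). The Tpm1 value rests on 4491.5 reads, far fewer than the 104185 reads at the 76-base pair of that gene. It therefore describes only a minority of the reads through Tpm1. Values of 37.6% or less were found for the exons of Mef2d (21 bases, 37.6%), Clasp1 (24 bases, 22.0%), Ldb3 (186 bases, 22.0%), Bin1 (129 bases, 19.0%), Mef2a (24 bases, 16.7%) and Numb (147 bases, 14.7%). The exons of Cald1 (78 bases, 87.5%) and Itga7 (120 bases, 18.1%) had 3 and 1 reads at 1 flanking junction, so their values rest on the other junction. No regulator was perturbed in these samples, so the values describe the tissue and are tied to no single regulator.

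**Figure D5:**
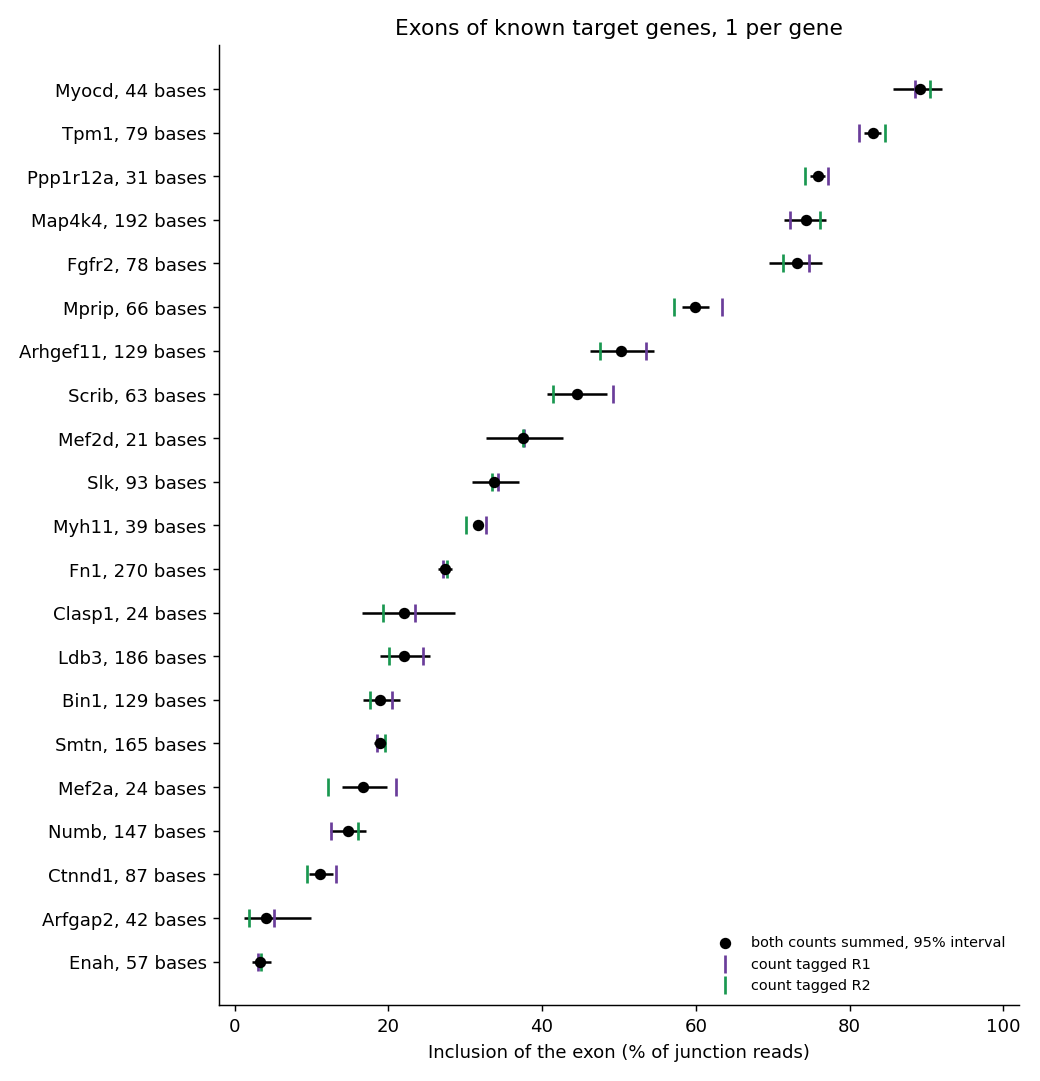
Inclusion (percent of junction reads) of 1 exon in each of 21 known target genes whose flanking junction counts lay within 5-fold of each other. Points with bars are the summed counts with the 95% interval and coloured ticks the counts tagged R1 and R2; values run from 3.26% for Enah to 89.2% for Myocd.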

How the data were processed

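Per the labels, the authors deposited gene and transcript tables for each library on mm10 with GENCODE M4, holding expected counts and TPM, and, for both libraries together, Ensembl 65 gene RPKM, exon and splice junction tables with read counts on mm9. The sources used here do not state the aligner, the counting tool or its strand setting. Names, positions and sequences come from GENCODE M21. Except for Rbfox3, transcript types and residues were used only for transcripts of equal length in both releases. The RPKM values deposited by the authors are not tied to a replicate, so their mean was used. Ratios between libraries use log2(TPM + 0.5), minus the median over genes averaging 1 TPM or more. Rounded expected counts gave the edgeR 4.0.16 TMM and DESeq2 1.42.0 factors, in R 4.3.3. Other steps used Python 3.11.15, numpy 2.4.6, pandas 2.3.3, scipy 1.17.1 and matplotlib 3.10.9. On simulated counts of 15858 genes for the library ratio, 100% of 4-fold genes and 0.1% of unchanged genes passed 1.5-fold. On 2000 simulated exons, 97.6% of intervals held the true inclusion. Both simulations held counting error alone, and the exons had equal expected reads at both flanking junctions. They therefore check the calculation and do not show how the intervals or the fold limit perform on the real reads. The text names all 10 regulators and their paralogs, transcripts of at least 10%, exons with 10 to 90% inclusion, 1 exon and 1 exclusive pair for each target gene with such reads, and of other lists the 3 highest genes and those under 1 TPM. The alternative exons of Esrp1 are counted but not reported here. Members and lists were chosen with earlier results of these data known. Alternatives were other detection levels, pseudocounts, scalings, read minimums and flanking junctions, posterior mean TPM, expected counts, CPM, mm9 RPKM and leaving out each library.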

Additional observations from a re-analysis of the deposited data

How the results depend on the processing

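No paired analysis was possible because the series holds 1 group. The 10 regulators were detected under every alternative tried (detection at 0.5, 5 or 10 TPM, posterior mean TPM, either library alone), and none passed 1.5-fold under any pseudocount, scaling, gene filter or length centring tried. The summed share of 0.0848% became 0.173% by expected counts, 0.101% without mitochondrial genes and 0.0985% by mm9 RPKM, and 0.0807 to 0.0889% with either library left out. These alternatives change the unit or the total. Counts of exons with 10 to 90% inclusion ran from 11 (either flanking junction alone) to 16 (any skipping junction with reads). The share moved more: those 16 were 34.8% of 46 exons, beside 13.9% of all such exons, against 68.4% of 19 beside 27.5%. The count was 12 when flanking junctions had to lie within 5-fold of each other, an alternative added after the data were seen. The log2 ratio of Mbnl1 to Mbnl2 was -0.35 by mm9 RPKM, against 0.08. Of the inclusion values with 1 flanking junction alone, 19 of 26 left the 95% interval of the mean, so these intervals understate the uncertainty, and the cause was not tested. With 2 libraries of 1 group, every comparison between genes is limited by the spread of those libraries.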

Other observations

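Rbfox3 was read across its whole length. Of its 24 Ensembl 65 introns, 17 had at least 20 junction reads, between 87 and 819 each. The count tagged R1 was higher than the count tagged R2 in 17 of 17 introns and held 71.7% of their 7525 reads, against 47.0% over all junctions. In the transcript tables Rbfox3-203 had 18.4 and 7.15 TPM in replicates 1 and 2, and Rbfox3-205 at 12.8 and 7.27 TPM. Both are annotated in M21 as protein-coding with 14 exons, without a check of equal length in both releases, and both were lower in replicate 2.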
